A study of Mus musculus with 4 samples.

Results

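The endothelial genes described here are 10 genes that mark blood vessel endothelium or encode receptors of vessel growth, namely Tie1, Tek, Kdr, Cdh5, Plvap, Esam, Eng, Pecam1, Cldn5 and Emcn. They were taken as the scanner-file probes whose transcript accession maps to one of these symbols, which gave 11 of the 41174 probes of the array and 10 of its 17178 named genes. Cdh5 had 2 probes and each other gene had 1. RNA came from the gastric lymph node (the left pancreatic node) and from the pancreatico-duodenal lymph node (the right one) of 4 individual female NOD mice aged 12 weeks, for which the labels give no treatment. NOD is an inbred strain that develops autoimmune diabetes spontaneously. Each mouse had 1 two-colour Agilent array, with its gastric node in the red Cy5 channel and its pancreatico-duodenal node in the green Cy3 channel. Every ratio is a log2 ratio of gastric over pancreatico-duodenal node, and negative values mark genes that read lower in the gastric node. No array had the dyes exchanged, and dye and node therefore cannot be told apart.

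Blood endothelium lines the vessels of a lymph node, from the feeding arterioles and capillaries to the high endothelial venules through which lymphocytes enter. Its cells sense angiopoietins through the Tie receptors and vascular endothelial growth factor through Kdr, and hold to each other through VE-cadherin, claudin and immunoglobulin-type adhesion proteins. Members of the ETS family of transcription factors, which bind DNA around a GGAA core, are known regulators of many of these genes.

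The gastric node read lower for 5 of the 11 probes at an adjusted p under 0.05, those of Tie1, Plvap, Eng, Esam and 1 probe of Cdh5, and higher for none. Over all 27603 probes that were above background, 4.92% were lower and 2.99% higher by the same test (limma, Benjamini-Hochberg adjustment over all 27603). The differences were small, from 1.26-fold lower for Esam to 1.49-fold lower for Tie1. All 11 probes had a mean below 0, and their median was -0.38, against 0.02 for all kept probes. Each of the 11 was well above background in both nodes of all 4 mice. These directions are those after loess dye normalization, and after median centring 1 member probe was lower (Tie1) and 2 were higher (Pecam1 and the other probe of Cdh5), in a setting where 2859 of all kept probes were lower and 16108 higher. No member probe passed when mouse 2, mouse 3 or mouse 4 was left out, where 0 to 5 of all kept probes were lower and none higher. At an unadjusted p under 0.05 (limma), 7 of 11 members were lower each time. By that looser threshold 2785 to 3512 of all 27603 kept probes were lower and 2643 to 3851 higher. Without mouse 1, 8 of 11 passed, the additional ones being Kdr, Cldn5 and Tek, and 1924 of all kept probes were lower and 1128 higher. In these whole-node samples fewer endothelial cells and less RNA per endothelial cell cannot be told apart.

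**Figure D1:**
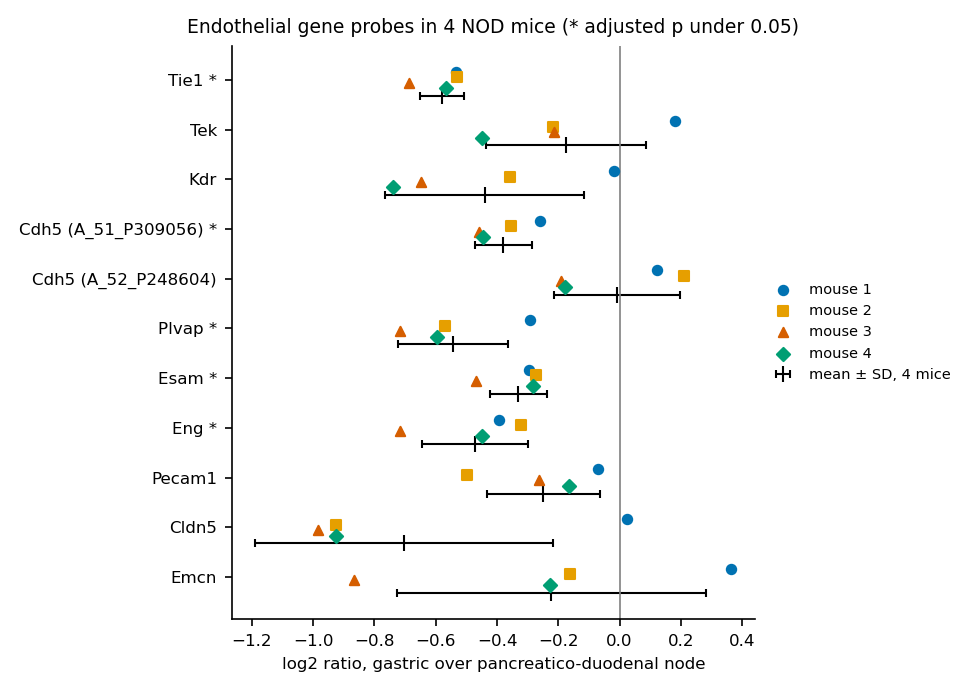
Log2 ratio of gastric over pancreatico-duodenal node (x axis) for the 11 probes, with 1 point for each of 4 mice and the mean ± SD as a black bar. The Tie1 points lie between -0.69 and -0.53, whereas those of Cldn5 and Emcn reach above 0 in mouse 1 only.

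The bases just before the transcript start are shown for 3 members, taken from RefSeq (assembly GRCm38.p6, used only for these sequences). A window was found for 6 of the 10 members, Tie1, Tek, Kdr, Eng, Cldn5 and Emcn. Tie1 and Eng are the called members with a window, and Cldn5 is the member with the lowest mean ratio after loess. Each is 250 bases long, written 5′ to 3′ on the strand of the gene, and capitals mark the ETS core GGAA or its reverse complement TTCC.
Tie1, chr4:118489850-118490099, minus strand: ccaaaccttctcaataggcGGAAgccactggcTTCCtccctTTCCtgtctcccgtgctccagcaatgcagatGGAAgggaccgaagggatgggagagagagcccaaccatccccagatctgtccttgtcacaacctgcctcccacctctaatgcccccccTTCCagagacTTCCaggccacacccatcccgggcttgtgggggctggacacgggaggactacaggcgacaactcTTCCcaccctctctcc
Eng, chr2:32646345-32646594, plus strand: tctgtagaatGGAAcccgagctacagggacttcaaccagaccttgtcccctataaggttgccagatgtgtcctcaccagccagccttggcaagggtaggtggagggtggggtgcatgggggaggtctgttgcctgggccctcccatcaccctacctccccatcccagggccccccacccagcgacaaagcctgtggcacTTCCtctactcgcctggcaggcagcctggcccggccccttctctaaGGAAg
Cldn5, chr16:18776597-18776846, plus strand: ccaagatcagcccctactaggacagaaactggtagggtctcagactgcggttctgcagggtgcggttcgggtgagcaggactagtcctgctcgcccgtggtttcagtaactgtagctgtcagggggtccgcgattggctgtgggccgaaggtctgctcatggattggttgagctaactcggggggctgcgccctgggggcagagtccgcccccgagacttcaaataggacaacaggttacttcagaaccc
The core GGAA, searched on both strands, occurred 7 times before Tie1, 3 times before Eng and 0 times before Cldn5. Before Kdr and Emcn it occurred 4 times each and before Tek 2 times. Among all 32851 windows of the same length in the table, 93.4% held at least 1 copy and the median was 3. The longer form AGGAAG, which contains that core, was present before Tie1, Eng and Emcn, 3 of the 6 windows, and in 29.5% of all windows. These matches are letters in a window and describe no binding.

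Tie1, a receptor tyrosine kinase of endothelium that pairs with Tek, had the most even difference of the group. Its normalized intensity was 294, 253, 187 and 216 in the gastric nodes of mice 1 to 4, against 426, 365, 301 and 320 in their pancreatico-duodenal nodes. The highest gastric value, 294, lay below the lowest pancreatico-duodenal value, 301, so the ranges of the nodes did not overlap. How many of all kept probes were separated in this way was not counted, here or for Eng and Plvap below. In log2 ratios this came to -0.53, -0.53, -0.69 and -0.56, a mean of -0.58 ± 0.07 (SD, n = 4; adjusted p = 0.0181), or 1.49-fold lower in the gastric node. The interval of the mean, with 95% confidence from the moderated limma fit, ran from -0.70 to -0.46.

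Tek encodes Tie2, the receptor that binds the angiopoietins. Its probe was the dimmest of the group, with intensities of 191, 166, 121 and 136 in the gastric nodes and 168, 193, 141 and 186 in the pancreatico-duodenal nodes of mice 1 to 4. The gastric node was the higher one in mouse 1 and the lower one in the other 3 mice, and the ranges of the nodes overlapped. The log2 ratios were 0.18, -0.22, -0.21 and -0.45, with a mean of -0.18 ± 0.26 (SD, n = 4; adjusted p = 0.297) and an interval from -0.43 to 0.08. Without mouse 1 the Tek mean was -0.29 (adjusted p = 0.0445), and without mouse 4 it was -0.08 (adjusted p = 0.665). After loess Tie1 was lower than Tek in ratio in 4 of 4 mice, by 0.71, 0.31, 0.47 and 0.12 in mice 1 to 4. The mean difference of Tie1 minus Tek was -0.40 ± 0.25 (SD, n = 4; exact permutation test over sign flips, two-sided p = 0.125), and 0.125 is the smallest p that 4 mice allow. With median centring the mean difference was -0.24 (exact permutation p = 0.25), and in mouse 4 Tek was the lower one, at -0.28 against -0.22 for Tie1.

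Kdr encodes VEGFR2, the main signalling receptor of vascular endothelial growth factor. Its intensity was 1151, 909, 577 and 632 in the gastric nodes of mice 1 to 4, against 1165, 1164, 903 and 1057 in their pancreatico-duodenal nodes. In mouse 1 the nodes were nearly level, while mice 3 and 4 had the widest gaps. The log2 ratios were -0.02, -0.36, -0.65 and -0.74, with a mean of -0.44 ± 0.33 (SD, n = 4), below 0 in 4 of 4 mice but not past the threshold (adjusted p = 0.0806). Without mouse 1 the mean was -0.58 (adjusted p = 0.0178). Without mouse 2, 3 or 4 it was -0.47, -0.37 and -0.34 and did not pass (limma, adjusted p = 0.218, 0.182 and 0.251).

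The Kdr probe was printed on 10 spots of each array, which separates measurement error within an array from the spread between mice. The SD between the 10 spots of an array was 0.03 in each of the 4 mice, against an SD of 0.33 between mice. In mouse 1 the spots ran from -0.09 to 0.04, and in mouse 4 from -0.78 to -0.68. The spot range of mouse 1 met that of no other mouse. The adhesion gene Pecam1 was also printed on 10 spots, with SDs of 0.03 to 0.05 between spots and 0.18 between mice. The difference among mice in these 2 genes was larger than the scatter of repeated spots, which shared the RNA, the labelling and the array.

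**Figure D2:**
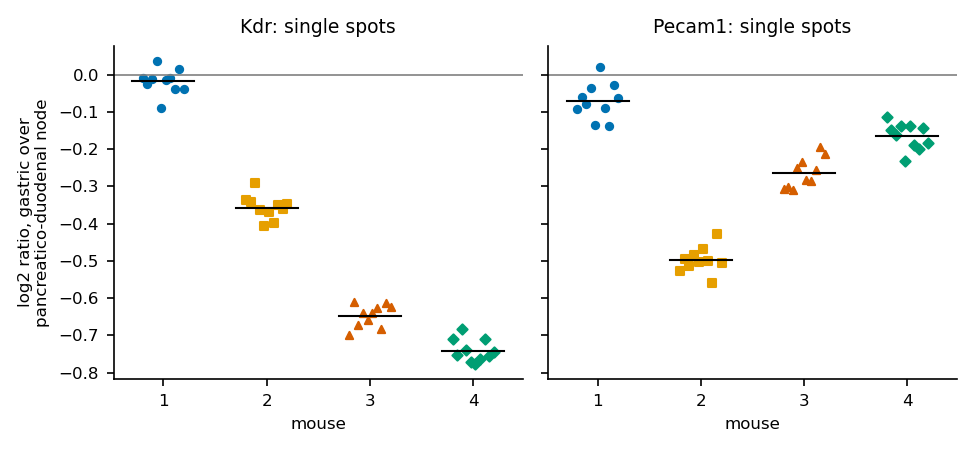
Log2 ratio of gastric over pancreatico-duodenal node (y axis) of the 10 single spots of Kdr (left) and Pecam1 (right) in mice 1 to 4, with the mean of the spots as a black line. For Kdr the means were -0.02, -0.36, -0.65 and -0.74, and the spots of mouse 1 stay clear of those of the other mice.

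Eng encodes endoglin, a co-receptor for BMP9 and other ligands of the transforming growth factor beta family. Its intensity was 997, 1022, 631 and 834 in the gastric nodes, against 1311, 1279, 1038 and 1137 in the pancreatico-duodenal nodes of mice 1 to 4. Every gastric value lay below every pancreatico-duodenal value, the closest being 1022 and 1038. The mean log2 ratio was -0.47 ± 0.17 (SD, n = 4; adjusted p = 0.0296), a 1.39-fold lower level in the gastric node. Mouse 3 had the lowest ratio at -0.72, and mice 1, 2 and 4 were at -0.39, -0.32 and -0.45. Besides endothelium, Eng is also known in macrophages and stromal cells.

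Among the junction genes, the 2 probes of Cdh5 disagreed. Cdh5 encodes VE-cadherin, the adhesion protein of endothelial adherens junctions. Probe A_51_P309056 had intensities of 319, 262, 181 and 221 in the gastric nodes and 382, 335, 248 and 301 in the pancreatico-duodenal nodes of mice 1 to 4. Its log2 ratios were -0.26, -0.36, -0.46 and -0.45, with a mean of -0.38 ± 0.09 (SD, n = 4; adjusted p = 0.0258). The brighter probe A_52_P248604 had 958, 870, 628 and 653 in the gastric nodes and 880, 752, 718 and 739 in the pancreatico-duodenal nodes. It was higher in the gastric node of mice 1 and 2 and lower in that of mice 3 and 4, with a mean of -0.01 ± 0.21 (SD, n = 4; adjusted p = 0.952). The first probe minus the second was negative in 4 of 4 mice, at -0.37 ± 0.14 (SD, n = 4; exact permutation test, two-sided p = 0.125, the smallest possible with 4 mice). Which probe reports the level of VE-cadherin RNA could not be settled from these files. Where 1 probe stood for each gene, the brighter one was used and Cdh5 was not called.

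Esam encodes an immunoglobulin-type adhesion protein of endothelial tight junctions that is also found on platelets. Its intensity was 505, 451, 338 and 436 in the gastric nodes, against 620, 546, 467 and 531 in the pancreatico-duodenal nodes of mice 1 to 4. Within each mouse the gastric node was lower, although the ranges of the nodes overlapped between mice. The log2 ratios were -0.29, -0.27, -0.47 and -0.28, a mean of -0.33 ± 0.09 (SD, n = 4; adjusted p = 0.0302), and mouse 3 stood apart. With the scanner software's own processed signals, which the authors' series table repeats, the mean was -0.37 and did not pass (adjusted p = 0.0583).

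Cldn5, the main claudin of endothelial tight junctions, had the lowest mean ratio of the group after loess, while Tie1 was the lower one with the scanner software's processed signals (-0.76 against -0.72 for Cldn5) and with median centring (-0.25 against -0.15). Its intensity was 3181, 2020, 1382 and 1533 in the gastric nodes of mice 1 to 4, against 3127, 3831, 2736 and 2911 in the pancreatico-duodenal nodes. The log2 ratios were 0.02 in mouse 1 and -0.92, -0.99 and -0.93 in mice 2, 3 and 4. The mean of -0.70 ± 0.49 (SD, n = 4) did not pass (adjusted p = 0.0667), with an interval from -1.14 to -0.26. Without mouse 1 it was -0.94 (adjusted p = 0.00392). Without mouse 2, 3 or 4 it was -0.63, -0.61 and -0.63 and did not pass (limma, adjusted p = 0.228, 0.156 and 0.227).

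Pecam1 encodes CD31, an adhesion protein of endothelial junctions that platelets and many leukocytes also carry. Its intensity was 1086, 927, 679 and 820 in the gastric nodes and 1140, 1309, 814 and 919 in the pancreatico-duodenal nodes of mice 1 to 4. The log2 ratios were -0.07, -0.50, -0.26 and -0.16. All 4 lay below 0, and the mean of -0.25 ± 0.18 (SD, n = 4) did not pass (adjusted p = 0.0999).

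Plvap forms the diaphragms of endothelial fenestrae and caveolae and was the brightest probe of the group. It read 4764, 4341, 2908 and 3629 in the gastric nodes, against 5833, 6442, 4779 and 5478 in the pancreatico-duodenal nodes of mice 1 to 4. The gastric values of mice 1 to 4 all lay below the lowest pancreatico-duodenal value of 4779. The mean log2 ratio was -0.54 ± 0.18 (SD, n = 4; adjusted p = 0.0260), a 1.46-fold lower level in the gastric node, with -0.29 in mouse 1 and -0.57, -0.72 and -0.59 in mice 2, 3 and 4. Emcn, which encodes the mucin-like endomucin of capillaries and veins, read 1158, 892, 412 and 755 in the gastric nodes and 899, 999, 752 and 883 in the pancreatico-duodenal nodes. Its log2 ratios of 0.36, -0.16, -0.87 and -0.23 spread most of all members, and the mean of -0.22 ± 0.50 (SD, n = 4) did not pass (adjusted p = 0.449). Without mouse 1 the Emcn mean was -0.42 and without mouse 3 it was -0.0083, and neither passed.

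**Figure D3:**
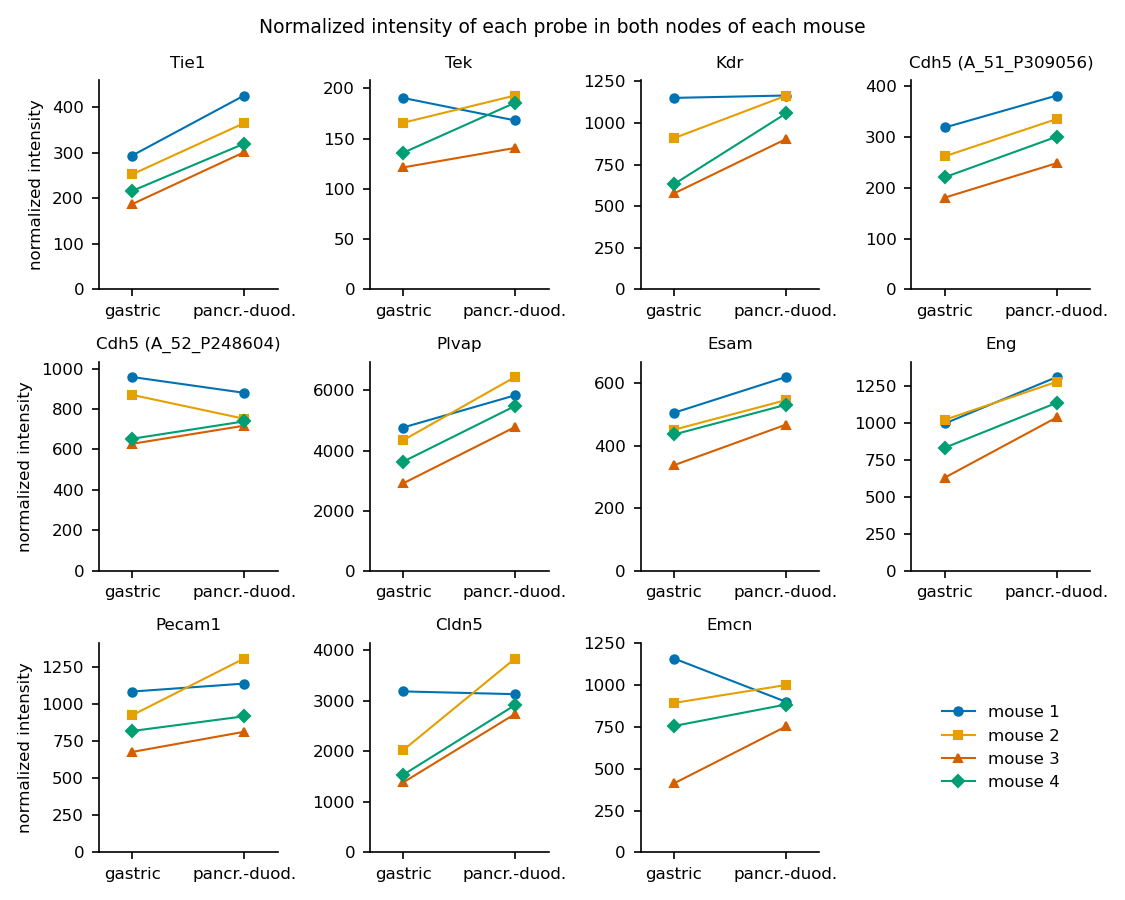
Normalized intensity (y axis, linear, starting at 0) of each of the 11 probes in the gastric node (left) and the pancreatico-duodenal node (right), with 1 line joining the nodes of each of 4 mice. All 4 lines run upwards to the right for 7 probes, those of Tie1, Kdr, Plvap, Esam, Eng, Pecam1 and 1 of Cdh5, and the line of mouse 1 runs downwards for Tek, Cldn5 and Emcn.

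The mice differed in how many members were lower. In mouse 1, 7 of 11 probes were below 0 and their median was -0.07. In mouse 2, 10 of 11 were below 0 (median -0.36), and in mice 3 and 4 all 11 were, with medians of -0.65 and -0.45. The medians of all kept probes lay between 0.01 and 0.03 in the same mice. Of all kept probes 45.7%, 47.0%, 48.0% and 46.3% were below 0 in mice 1 to 4. A total of 7 member probes were below 0 in all 4 mice, those of Tie1, Kdr, Plvap, Esam, Eng, Pecam1 and 1 probe of Cdh5, and 18% of all kept probes were. Ratios below -0.5 were found for 1, 3, 6 and 4 member probes in mice 1 to 4, and for 1.53% to 3.83% of all kept probes.

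Markers of other cells and tissues moved in the same arrays. The median log2 ratio of 8 adipocyte genes was 1.55, -1.76, 0.15 and -1.58 in mice 1 to 4, with summed intensities of 4071 to 38077 in gastric and 4698 to 42375 in pancreatico-duodenal nodes, and none of the 8 passed. The median of 13 exocrine pancreas genes was -0.18, 0.21, -4.78 and 0.81, and their summed intensity ranged from 10984 to 58477 in gastric and from 6407 to 1854800 in pancreatico-duodenal nodes. Macrophage genes were lower in the gastric node for 6 of 8 kept genes and higher for none, led by Adgre1 at -1.36 ± 0.71 (further probe -0.54) and Cd163 at -1.26 ± 0.30 (SD, n = 4). The summed intensities of the 8 were 41906 to 77188 in gastric and 86850 to 123924 in pancreatico-duodenal nodes, and Marco, which did not pass (adjusted p = 0.0750), made up most of them, with 53010 in the gastric and 51125 in the pancreatico-duodenal node of mouse 1. Of 9 fibroblastic stroma genes 4 were lower and none higher, led by Col3a1 at -0.84 (further probe -0.12) and Bgn at -0.72, and 7 had a mean below 0. Their summed intensities were 97621 to 156613 in gastric and 122400 to 133378 in pancreatico-duodenal nodes. Ccl19 made up most of these sums, with 77301 in the gastric and 71932 in the pancreatico-duodenal node of mouse 3. It went the other way at 0.41 ± 0.33, above 0 in 4 of 4 mice, and did not pass (limma, adjusted p = 0.0970). Pdgfra was at 0.12 and did not pass. Ccl19 and Pdgfra are named after their values were seen. Of 7 kept platelet and megakaryocyte genes 1 was lower, Itga2b at -1.30 ± 0.36, while the list median was -0.08. The platelet markers Gp1ba and Gp9 were not above background. Red cell genes, 3 of them kept, had medians of 1.60, 0.12, 0.13 and 1.61 in mice 1 to 4, and none passed. The part of these other cells in the endothelial ratios was not tested.

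Lymphocyte markers were above background in both nodes of all mice for 8 of 8 T cell and 8 of 8 B cell genes. The T cell genes Cd28 (0.33 ± 0.15) and Cd3g (0.32 ± 0.14) were higher in the gastric node, and no B cell gene passed. Their list medians were 0.14 and 0.07.

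Genes of other kinds of vessel cell were also counted. In the lymphatic endothelium 4 of 8 kept genes were lower and none higher, with a list median of -0.46, among them the matrix glycoprotein gene Reln at -0.78 ± 0.33 and the scavenger receptor gene Stab2 at -0.53 ± 0.25 (SD, n = 4). High endothelial venule genes were lower in 1 of 7 cases, Madcam1 at -0.25 ± 0.09 (adjusted p = 0.0484), and higher in none, with a median of 0.06. Only 3 of these 7 genes had a mean below 0. Glycam1, the brightest of them, read higher in the gastric node of all 4 mice. Its mean log2 ratio of 0.47 ± 0.30 fell short of the threshold (limma, adjusted p = 0.0600), and Glycam1 was picked out after the values were known. Smooth muscle and pericyte genes were lower in 2 of 12 cases, the potassium channel gene Kcnj8 at -0.51 ± 0.28 and the intermediate filament gene Des at -0.46 ± 0.09, with a median of -0.17. Over 1 probe for each of the 21320 genes and unnamed transcripts, the brightest, 4.7% were lower and 3.31% higher by the same test, and their median was 0.03. By this count 4 of the 10 endothelial members were lower, with a median of -0.39. Whether the lists differed from each other was not tested.

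Ligands, partner receptors and other genes of the members' pathways were counted next. Over 9 lists of vessel genes with 111 kept genes, 13 were lower, 3 were higher and the median was -0.09. Of 9 genes of vascular endothelial growth factors and their receptors, 1 was lower, Flt4, the lymphatic receptor VEGFR3, at -0.39 ± 0.16 (SD, n = 4; adjusted p = 0.0385). All 9 had a mean below 0, and 6 were below 0 in all 4 mice. Vegfb was level at -0.00046, and Vegfb and Vegfa were each above 0 in 2 of 4 mice. A further Nrp1 probe read 0.02. The list median was -0.20, against 0.03 over the brightest probe of every gene or transcript. Flt4 also stands among the lymphatic genes above. In the angiopoietin list 1 of 5 kept genes was lower, Svep1, a large matrix protein gene known from mice to act in vessel development with the angiopoietin and Tie system, at -0.75 ± 0.32 (adjusted p = 0.0305). Angpt1 and Angpt4, which encode the ligands of Tek, were not above background. Angpt2, the context-dependent ligand, had a mean of -0.18 ± 0.19 and did not pass, and is named here after its values were seen.

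Around endoglin, 1 of 13 kept genes was lower and 1 higher. Acvrl1, the type I receptor ALK1 that works with endoglin, was at -0.45 ± 0.13 (SD, n = 4; adjusted p = 0.0258), with -0.37, -0.62, -0.48 and -0.33 in mice 1 to 4. Smad4, the shared signal transducer of the family, was higher at 0.28 ± 0.10 (adjusted p = 0.0419), and a further Smad4 probe read 0.14. The ligand genes Gdf2 and Bmp10 were not above background. In the Notch pathway 2 of 11 were lower, the endothelial receptor gene Notch4 at -0.46 ± 0.22 (adjusted p = 0.0400) and its ligand gene Dll4 at -0.42 ± 0.10 (adjusted p = 0.0231), and none was higher.

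Of 17 endothelial transcription factor genes none was lower and 1 was higher, Ets1 at 0.27 ± 0.10 (SD, n = 4; adjusted p = 0.0442), a gene also highly active in lymphocytes. The other Ets1 probes reached down to 0.05. The endothelial ETS genes Erg and Etv2 were not above background. Junction proteins had 2 of 14 lower, the catenin genes Jup at -0.32 ± 0.07 and Ctnnd1 at -0.29 ± 0.11, and 1 higher, Ctnnb1 at 0.23 ± 0.07, for which another probe read -0.07. The catenins link cadherins to the cytoskeleton.

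Of 29 other pan-endothelial genes 4 were lower and none was higher, with a list median of -0.15. Without mouse 1, 13 of the 29 were lower and none higher, and with median centring 1 was lower and 16 were higher. Median centring also made 16108 of all 27603 kept probes higher and 2859 lower. The 4 included the tetraspanin gene Tspan7 at -0.64 ± 0.24 (SD, n = 4; adjusted p = 0.0277), the extracellular matrix gene Mmrn2 at -0.40 ± 0.18 (adjusted p = 0.0402) and the sialomucin gene Podxl at -0.30 ± 0.05 (adjusted p = 0.0278; further probe -0.09). The fourth was Rasip1, a regulator of vessel lumen formation, at -0.29 ± 0.12 (adjusted p = 0.0451), named after its values were seen. In the vessel activation list 2 of 7 were lower, the adhesion gene Icam1 at -0.40 ± 0.07 (adjusted p = 0.0221) and the apelin receptor gene Aplnr at -0.35 ± 0.09 (adjusted p = 0.0282; further probe -0.03). None of 6 kept arterial and venous genes passed, among them the gap junction gene Gja4 at -0.02 ± 0.14 (adjusted p = 0.823). With median centring the means of Notch4, Mmrn2, Icam1, Kcnj8, Madcam1 and Gja4 turned above 0 (0.02 for Kcnj8 to 0.49 for Gja4), against a median of 0.29 for all kept probes. The list counts also moved with the mice. When mouse 2, 3 or 4 was left out, no gene of any vessel or marker list passed, and 0 to 5 of all kept probes were lower. Without mouse 1, 1924 of all 27603 kept probes were lower and 1128 higher. The vessel genes then lower were 3 of 9 growth factor, 3 of 5 angiopoietin, 1 of 13 endoglin and 2 of 11 Notch genes. Also lower were 5 of 14 junction, 1 of 6 arterial and venous and 3 of 7 vessel activation genes. Among markers 6 of 8 lymphatic, 6 of 12 smooth muscle and pericyte and 1 of 7 high endothelial venule genes were lower. So were 8 of 8 macrophage, 3 of 8 adipocyte, 5 of 9 fibroblastic stroma and 1 of 7 platelet genes. Higher were 3 of 13 endoglin, 2 of 17 transcription factor and 3 of 8 T cell genes.

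The genes whose ratios lay nearest to the median of the 10 members over the 4 mice were Igf1, Mlkl, Ctsl, Kif5a and Prkg2. The member median was -0.04, -0.34, -0.67 and -0.45 in mice 1 to 4, and the Euclidean distances from it were 0.072 for Igf1 and 0.109 for Prkg2, among 13082 named genes. Igf1, a growth factor gene, was at -0.06, -0.35, -0.73 and -0.48. None of these 5 passed (adjusted p from 0.0653 to 0.0965, limma). With 4 arrays many genes can share such a pattern.

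Across the arrays, 67.6% to 71.8% of spots were well above background in the gastric channel and 60.2% to 63.1% in the pancreatico-duodenal channel, and no spot was saturated. The ratios were therefore set against probes of the same brightness. For each member the kept probes within 0.5 log2 units of its mean intensity had median log2 ratios near that of all probes, for example 0.03 over 4441 probes around Tie1. Loess brings such medians close to 0 at every brightness by construction, so they cannot test for an effect of dye or brightness. Of the probes around Tie1, 6.64% were called lower. The choice of dye normalization moved all members. Loess removes a trend of the ratio with brightness within each array, and median centring only shifts the array. With median centring the median of all kept probes moved to 0.29, and 16108 probes were higher and 2859 lower, against 826 higher and 1359 lower with loess. Tie1 stayed below 0 at -0.25 (adjusted p = 0.00954), the only member called lower, while Plvap (0.05), Esam (0.09), Eng (0.02) and Kdr (0.04) turned above 0 without passing. Pecam1 at 0.24 and the bright Cdh5 probe at 0.46 were called higher. Relative to the median of all kept probes, 10 of 11 members were lower in this setting, with a median of -0.25, the exception being the bright Cdh5 probe. Pecam1 (-0.06) and Emcn (-0.04) lay close to that median. Median centring leaves any trend with brightness in place. The median of all kept probes therefore need not hold at the brightness of a member, and this count cannot test for a dye effect.

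**Figure D4:**
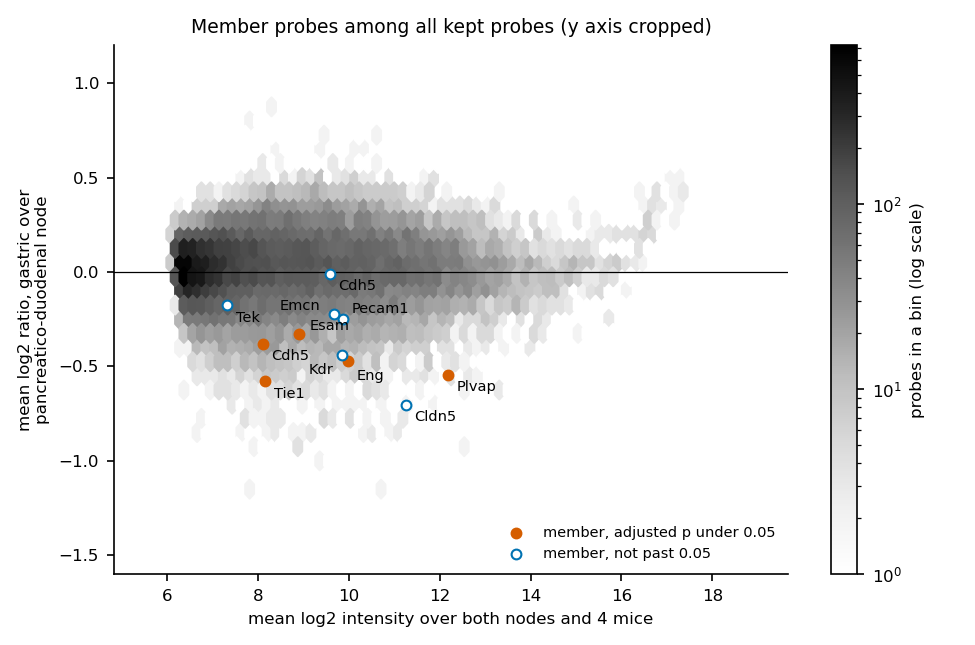
Mean log2 ratio (y axis, cropped at -1.6 and 1.2) against mean log2 intensity over both nodes and 4 mice (x axis) for all 27603 kept probes in grey bins shaded by their number on a log scale, with the 11 member probes as points. Filled points passed the test, and the 11 members lie between -0.70 and -0.01.

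**Figure D5:**
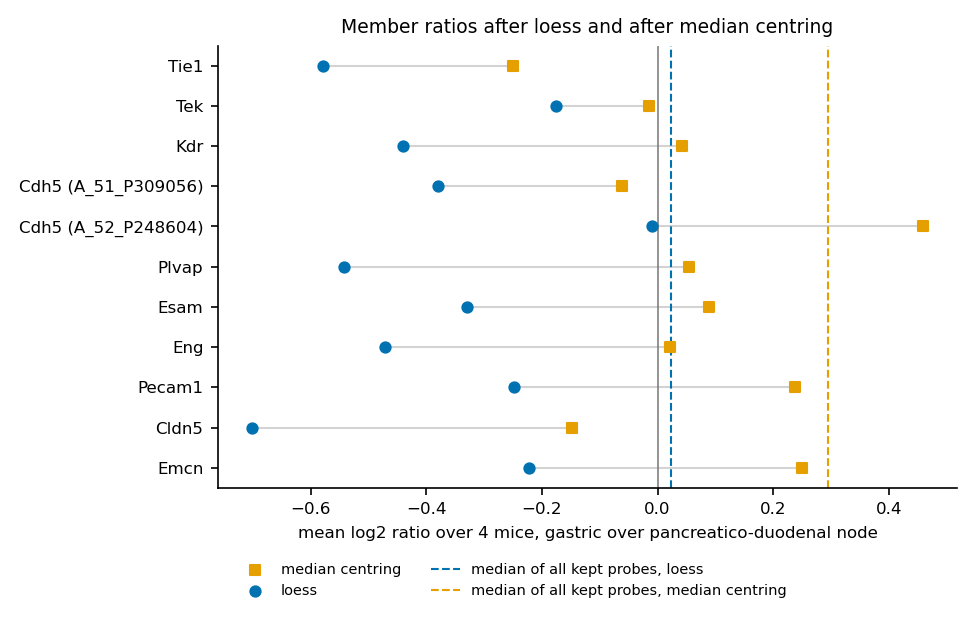
Mean log2 ratio over 4 mice (x axis) of each member probe after loess (circles) and after median centring (squares), with the median of all kept probes in each setting as a dashed line. The squares of 10 of 11 members lie left of the dashed line at 0.29, and those of Tie1, Tek, Cldn5 and 1 probe of Cdh5 also lie below 0.

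The scanner software's processed signals gave -0.76 for Tie1 (adjusted p = 0.0255), against -0.58 with normexp and its offset of 50. Plvap, the brightest member, read -0.51 (adjusted p = 0.0451). These signals differ in background correction, dye normalization and offset, and the part of each was not tested.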

How the data were processed

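The authors deposited scanner output of 4 two-colour Agilent arrays on 1 slide, with spot intensity values per the file headers, and a series table of log2 ratios. The deposited log10 ratio column was not used, since it differed from the ratio of the processed signals. The series table equalled log2 processed red over green averaged over spots, within 5.1e-05.

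limma 3.58.1 in R 4.3.3 was used. Backgrounds were corrected by normexp (offset 50) on mean signal and median background, and arrays were normalized by loess. Control spots and outlier-marked spots were left out and spots of a probe averaged. Probes were kept where 1 channel was well above background on 3 or more of the 4 arrays. The log2 ratio was tested against 0 by lmFit and eBayes with Benjamini-Hochberg adjustment over all kept probes, at 0.05, with the nodes paired within each mouse as the labels and arrays give. The number of arrays limits the precision. Genes were named by transcript accession through RefSeq (GRCm38.p6), and lists used the brightest probe of a gene. Named genes were, by rule, the members, up to 3 called genes of each list with the largest change, otherwise the brightest gene, up to 2 called genes of each marker list, and 5 nearest patterns. The members and lists were chosen with earlier results of these data known. The 15 alternatives covered background, centring, scaling, filters, probes per gene, the test and leaving out each mouse. The calculation was tested on simulated data.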

Additional observations from a re-analysis of the deposited data

Results flagged for a closer look

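Cldn5 was marked because 1 mouse lay far from the other 3. Mouse 1 had a log2 ratio of gastric over pancreatico-duodenal node of 0.025, against -0.99 to -0.92 in mice 2, 3 and 4, and this gap was 0.939 of the whole range, above Dixon's critical value for 4 samples. Esam was marked for mouse 3 at -0.47, with the others between -0.29 and -0.27 and a gap of 0.898 of the range. The macrophage receptor gene Cd163 was marked for mouse 1 at -0.82, with the others between -1.46 and -1.37 and a gap of 0.852 of the range. These are 3 of 67 probes and values examined, and chance alone marks about 1 in 20.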

How the results depend on the processing

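Median centring in place of loess gave 1 member probe lower and 2 higher, a member median of 0.043, and 2859 lower and 16108 higher among all kept probes, whose median moved to 0.29. Under it the sign turned for Kdr (0.043), Cdh5 A_52_P248604 (0.46), Plvap (0.054), Esam (0.089), Eng (0.022), Pecam1 (0.24), Emcn (0.25), Notch4 (0.045), Gja4 (0.49), Madcam1 (0.28), Mmrn2 (0.24), Kcnj8 (0.021), Icam1 (0.080), Igf1 (0.12), Ctsl (0.31) and Kif5a (0.0054). The scanner software's processed signals gave 738 probes lower and 494 higher, and the authors' deposited values gave 739 lower and 494 higher, while scaling between arrays gave 1312 higher. With the channels unpaired (no replicate block), 0 members passed in limma, and 6 of all probes were lower and 1 higher. At an unadjusted p under 0.05 in that fit, 5 members were lower, beside 1589 of all probes lower and 1786 higher. Leaving out 1 mouse at a time gave 0 to 8 members lower, 0 to 1924 of all probes lower and 0 to 1128 higher. It also gave -0.083 to 0.052 for Cdh5 A_52_P248604 and -0.066 to 0.033 for Gja4, whose sign turned. The cause of these changes was not tested, apart from the fewer samples by construction. Over all alternatives the member probes gave 164 values, of which 129 kept direction and side of the threshold, 23 lost the call, 3 gained it and 9 turned. A probe not called in the main test counted as kept while it stayed uncalled, as Tek did in 14 of 15 alternatives. The calls were kept in 11 of 15 alternatives for Tie1, 10 of 15 for Plvap and for Eng, and 8 of 15 for Esam. For Cdh5 A_51_P309056 the call was kept in 9 of 14. The slide could not be used as a block because there was 1 slide.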
